A study of Mus musculus with 6 samples.

Results

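The 10 transcripts described here are genes that microglia, the resident macrophages of the brain, are known to express strongly: C1qa, C1qb, C1qc, Ctss, Tyrobp, Aif1, Laptm5, Fcer1g, Cx3cr1 and P2ry12. They were taken by name from a deposited table of 55414 mouse genes, and each name occurred once. The deposited unit is FPKM, a fragment count scaled to gene length and to the size of the library. The genes were chosen by their FPKM in these same libraries, so their levels and folds are given as a description, with no test. RNA sequencing was done on neurons of the medial mammillary nucleus, in the hypothalamus. Papain was used to loosen the slices, fluorescent neurons were picked up with glass electrodes, and libraries were made from the extracted RNA with a SMARTer kit, per the labels' protocols. There were 3 libraries of neurons labelled PV-positive (parvalbumin; replicates 6, 7 and 8, called PV 6, PV 7 and PV 8) and 3 of neurons labelled Drd2-positive (the D2 dopamine receptor; replicates 1, 2 and 3, called Drd2 1, Drd2 2 and Drd2 3). The same terms stand as the genotype label, and all 6 carry the labels male, brain and neuron. The alleles behind the fluorescence, the age of the mice and the number of cells or mice per library are not stated in the labels.

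Microglia survey the tissue with receptors for signals from neurons, take up debris into lysosomes and make the recognition molecule of the classical complement pathway. Neurons are not known as a main source of any of the 10 transcripts, whereas macrophages at the borders of the brain and in blood share most of them. In the mouse brain, C1q is made mainly by microglia, and P2ry12 and Cx3cr1 are among the receptors by which resting microglia are recognised.

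Depth recovered from the FPKM values was 27.7 to 29.8 in the PV libraries and 23.8 to 33.7 in the Drd2 libraries, in units of 1000000 fragments. Pvalb was at 349, 482 and 563 FPKM in libraries PV 6, PV 7 and PV 8, against 10.4, 22.5 and 99.5 FPKM in libraries Drd2 1, Drd2 2 and Drd2 3. Drd2 was at 0.0132 FPKM in PV 6 and listed at 0 in PV 7 and PV 8, against 42.7, 55.0 and 7.74 FPKM in libraries Drd2 1, Drd2 2 and Drd2 3. The label male was checked with genes chosen after their values were seen. Xist, the RNA of the inactive X chromosome of females, was at 8.68, 4.95 and 8.60 FPKM in libraries PV 6, PV 7 and PV 8, and at 0.00165, 0 and 6.57 FPKM in libraries Drd2 1, Drd2 2 and Drd2 3. The 4 Y-linked genes Ddx3y, Eif2s3y, Kdm5d and Uty summed to 0.00806, 0.00976 and 0 FPKM in libraries PV 6, PV 7 and PV 8, and to 36.1, 29.7 and 0 FPKM in libraries Drd2 1, Drd2 2 and Drd2 3. The 3 PV libraries and Drd2 3 thus go against their label, and Drd2 1 and Drd2 2 do not. No PV library carried Y-linked transcripts beyond a trace, so the class of neuron and this split can be compared within one kind of library only through Drd2 3.

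The 3 C1q genes lie side by side on the minus strand of mm10 chromosome 4, within 18675 bases: C1qb at 136880129 to 136886187, C1qc at 136889804 to 136893065 and C1qa at 136895917 to 136898803. All positions given are on mm10 (GRCm38), with gene bounds from GENCODE M21. Promoter sequences of 8 of the 10 genes were found in RefSeq on GRCm38.p6; C1qa and Tyrobp were not among them. The 250 bases before the start site were searched on both strands for GAGGAA, the core recognised by PU.1, the transcription factor that macrophages and microglia need to form. It occurred in 5 of the 8, and in 23.3% of 32851 mouse promoter windows of the same length. The windows of C1qb, Ctss and Aif1 are shown because they hold the motif and lie outside the GENCODE gene, but for 16 bases in Aif1. Each is written 5′ to 3′ along its gene, and capitals mark the motif, which reads TTCCTC where it lies on the other strand.
C1qb, chr4:136886201-136886450, minus strand: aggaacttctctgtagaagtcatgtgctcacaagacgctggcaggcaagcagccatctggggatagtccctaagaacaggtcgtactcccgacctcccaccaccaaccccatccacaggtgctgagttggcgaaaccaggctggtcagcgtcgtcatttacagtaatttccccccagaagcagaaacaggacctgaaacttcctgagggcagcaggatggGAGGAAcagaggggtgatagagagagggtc
Ctss, chr3:95526536-95526785, plus strand: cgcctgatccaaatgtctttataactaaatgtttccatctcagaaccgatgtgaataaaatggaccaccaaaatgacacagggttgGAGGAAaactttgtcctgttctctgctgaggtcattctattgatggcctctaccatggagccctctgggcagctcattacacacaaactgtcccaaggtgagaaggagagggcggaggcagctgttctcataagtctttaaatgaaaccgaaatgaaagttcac
Aif1, chr17:35176053-35176302, minus strand: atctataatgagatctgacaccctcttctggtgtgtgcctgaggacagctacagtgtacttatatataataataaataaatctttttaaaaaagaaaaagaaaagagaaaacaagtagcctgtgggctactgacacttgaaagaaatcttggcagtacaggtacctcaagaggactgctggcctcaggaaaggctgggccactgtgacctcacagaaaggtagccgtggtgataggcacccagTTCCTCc
Counted from the RefSeq start site, the motif starts 30 bases before it in C1qb, 193 in C1qc, 164 in Ctss, 38 in Laptm5 and 7 in Aif1. RefSeq and GENCODE place some starts differently: 191 bases of the Laptm5 window, 151 of the C1qc window and 16 of the Aif1 window lie inside the GENCODE gene, and so do the motifs of Laptm5 and Aif1. The windows of Fcer1g, Cx3cr1 and P2ry12 hold none. The Cx3cr1 window (120068297 to 120068546) lies wholly inside the GENCODE gene (119901616 to 120069879), so no base before the GENCODE start was searched there. A part of the Fcer1g window also lies inside its GENCODE gene. A match describes letters in a window and not binding. Spi1, which encodes PU.1 and was chosen for this reason after its values were seen, was at 11.6, 0.0402 and 0 FPKM in libraries PV 6, PV 7 and PV 8, and at 0, 0.519 and 28.0 FPKM in libraries Drd2 1, Drd2 2 and Drd2 3.

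Microglial transcripts were present at 1 FPKM or more for at least 9 of the 10 genes in 5 of the 6 libraries, and for 2 of the 10 in Drd2 1. The 10 genes summed to 1919, 1287 and 545 FPKM in libraries PV 6, PV 7 and PV 8. They summed to 12.6, 110 and 4272 FPKM in libraries Drd2 1, Drd2 2 and Drd2 3. The highest and the 2 lowest sums were all in the Drd2 group, with the PV libraries between them. As a share of the FPKM total these sums were 0.486%, 0.287% and 0.148% in libraries PV 6, PV 7 and PV 8, and 0.00348%, 0.0312% and 1.21% in libraries Drd2 1, Drd2 2 and Drd2 3. In reads recovered from the FPKM values they rest on 72343, 48394 and 20911 reads in libraries PV 6, PV 7 and PV 8, and on 497, 4597 and 132706 in libraries Drd2 1, Drd2 2 and Drd2 3. In bulk libraries, fewer microglia and less RNA per microglial cell cannot be told apart. The values also do not show whether whole microglial cells were in the libraries at all.

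Drd2 3 was the highest library for 8 of the 10 genes; it was the highest for 20.4% of all 11478 genes kept by the filter on low values. Drd2 1 was the lowest for 9 of the 10, against 14.5% of all genes. In Drd2 3, 4 of the 10 genes were among the 100 most abundant genes of the library, and Ctss ranked 14 and C1qb 27. Among the 100 most abundant were 3 of the 10 in PV 6, 1 in PV 7 and 0 in PV 8. In Drd2 1 and Drd2 2 none was among the 1000 most abundant.

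**Figure D1:**
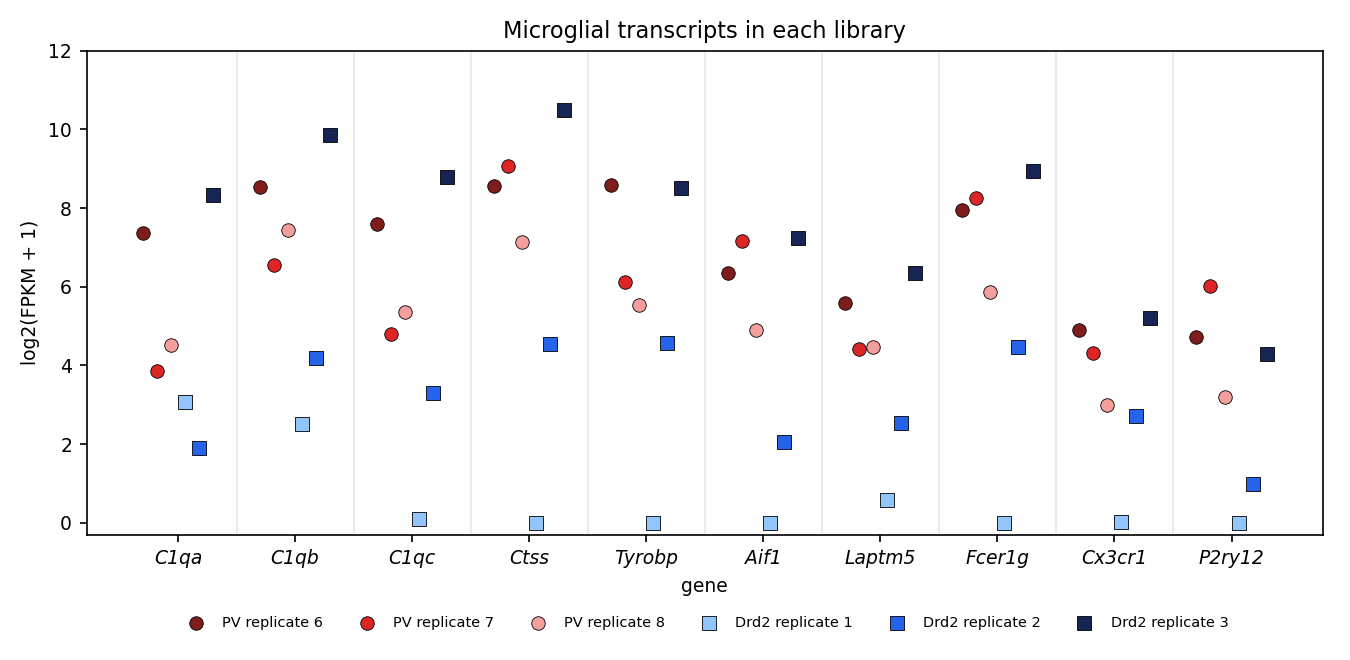
Levels of the 10 microglial transcripts on the scale log2(FPKM + 1), with 1 point for each library, PV libraries as circles and Drd2 libraries as squares. Drd2 3 is the highest point for 8 of the 10 genes, and Drd2 1 and Drd2 2 lie below every PV library for all 10.

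C1qa, C1qb and C1qc encode the chains that assemble into C1q, which binds antibody or marked surfaces and starts the classical complement pathway. C1qb (ENSMUSG00000036905) was at 371, 93.8 and 175 FPKM in libraries PV 6, PV 7 and PV 8, and at 4.66, 17.2 and 922 FPKM in libraries Drd2 1, Drd2 2 and Drd2 3. C1qc (ENSMUSG00000036896) was at 192, 27.0 and 40.3 FPKM in libraries PV 6, PV 7 and PV 8, and at 0.0614, 8.82 and 442 FPKM in libraries Drd2 1, Drd2 2 and Drd2 3. C1qa (ENSMUSG00000036887) was at 163, 13.5 and 21.9 FPKM in libraries PV 6, PV 7 and PV 8, and at 7.38, 2.72 and 324 FPKM in libraries Drd2 1, Drd2 2 and Drd2 3. For each chain the PV libraries lay between the low and the high Drd2 libraries. C1qb was the most abundant chain per length in every library but Drd2 1, where C1qa was.

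The chains kept no fixed ratio. C1qa stood at 0.438, 0.144 and 0.126 of C1qb in libraries PV 6, PV 7 and PV 8, and at 1.58, 0.159 and 0.352 in libraries Drd2 1, Drd2 2 and Drd2 3. C1qc stood at 0.517, 0.288 and 0.231 of C1qb in libraries PV 6, PV 7 and PV 8, and at 0.0132, 0.513 and 0.479 in libraries Drd2 1, Drd2 2 and Drd2 3. Drd2 1 stood apart: its C1qa value rests on 259 reads, its C1qb value on 171 and its C1qc value on 4. All 3 genes come from neighbouring loci, and no other library gave C1qa above C1qc.

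Ctss and Laptm5 encode proteins of the lysosome: cathepsin S is a cysteine protease that also trims the invariant chain of class II antigen presentation, and Laptm5 is a lysosomal membrane protein of blood-forming lineages. Ctss (ENSMUSG00000038642, chromosome 3, 95526786 to 95556403) was at 378, 535 and 140 FPKM in libraries PV 6, PV 7 and PV 8, and was listed at 0, then 22.4 and 1439 FPKM in libraries Drd2 1, Drd2 2 and Drd2 3. The value of Drd2 3 was the highest of any of the 10 genes in any library. Laptm5 (ENSMUSG00000028581, chromosome 4, 130913125 to 130936141) was at 47.4, 20.3 and 21.2 FPKM in libraries PV 6, PV 7 and PV 8, and at 0.485, 4.78 and 80.9 FPKM in libraries Drd2 1, Drd2 2 and Drd2 3. Both showed the same order of the Drd2 libraries, with replicate 1 lowest and replicate 3 highest.

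Tyrobp (DAP12) and Fcer1g (the common Fc receptor gamma chain) are short membrane adaptors that carry the activating signal of receptors such as Trem2 and the Fc receptors. Tyrobp (ENSMUSG00000030579, chromosome 7, 30413760 to 30417585) was at 387, 68.9 and 45.8 FPKM in libraries PV 6, PV 7 and PV 8, and was listed at 0, then 22.8 and 364 FPKM in libraries Drd2 1, Drd2 2 and Drd2 3. It was 1 of 2 genes whose highest library was a PV library. Fcer1g (ENSMUSG00000058715, chromosome 1, 171229572 to 171234365) was at 246, 304 and 57.2 FPKM in libraries PV 6, PV 7 and PV 8, and was listed at 0, then 21.3 and 495 FPKM in libraries Drd2 1, Drd2 2 and Drd2 3. The ratio of Tyrobp to Fcer1g was 1.57, 0.227 and 0.802 in libraries PV 6, PV 7 and PV 8, and 1.07 and 0.737 in Drd2 2 and Drd2 3, so PV 7 held much less Tyrobp for its Fcer1g than the other libraries.

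Aif1 encodes Iba1, the calcium-binding protein by which microglia are stained. It (ENSMUSG00000024397, chromosome 17, 35170991 to 35176068) was at 80.7, 142 and 28.9 FPKM in libraries PV 6, PV 7 and PV 8, and was listed at 0, then 3.17 and 149 FPKM in libraries Drd2 1, Drd2 2 and Drd2 3. PV 7 and Drd2 3 were nearly level, and the other Drd2 libraries lay below every PV library.

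Cx3cr1 is the receptor for fractalkine, a chemokine displayed by neurons, and P2ry12 is the receptor for ADP that steers microglial processes to injury. Cx3cr1 (ENSMUSG00000052336, chromosome 9, 119901616 to 120069879) was at 28.8, 19.0 and 7.01 FPKM in libraries PV 6, PV 7 and PV 8, and at 0.00658, 5.54 and 36.1 FPKM in libraries Drd2 1, Drd2 2 and Drd2 3. P2ry12 (ENSMUSG00000036353, chromosome 3, 59216272 to 59262871) was at 25.2, 63.7 and 8.15 FPKM in libraries PV 6, PV 7 and PV 8, and was listed at 0, then 0.968 and 18.6 FPKM in libraries Drd2 1, Drd2 2 and Drd2 3. P2ry12 thus peaked in PV 7, where C1q was lowest among the PV libraries. Exons of P2ry12 share 9 bases with Med12l on the other strand; Med12l was at no more than 2.48 FPKM in any library. Exons of Cx3cr1 share 78 bases with the antisense gene Gm33858, which was listed at 0 in every library.

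The make-up of the sum differed between libraries with many microglial reads. Ctss made up 19.7%, 41.6% and 25.6% of the sum in libraries PV 6, PV 7 and PV 8, and 0%, 20.4% and 33.7% in libraries Drd2 1, Drd2 2 and Drd2 3. P2ry12 stood at 0.0679, 0.679 and 0.0467 of C1qb in libraries PV 6, PV 7 and PV 8, and at 0.0564 and 0.0202 in Drd2 2 and Drd2 3. In PV 7, Aif1, Fcer1g and Ctss also stood higher relative to C1qb than elsewhere, at ratios of 1.52, 3.24 and 5.71; the other libraries in which the genes were above 0 gave at most 0.217, 1.24 and 1.56. Tyrobp was no part of this, at 0.735 of C1qb in PV 7, against 1.04 in PV 6 and 1.33 in Drd2 2. PV 7 also had the fewest genes at 1 FPKM or more, 8610 against 10293 to 12398 elsewhere; the part of this in the ratios was not tested.

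**Figure D2:**
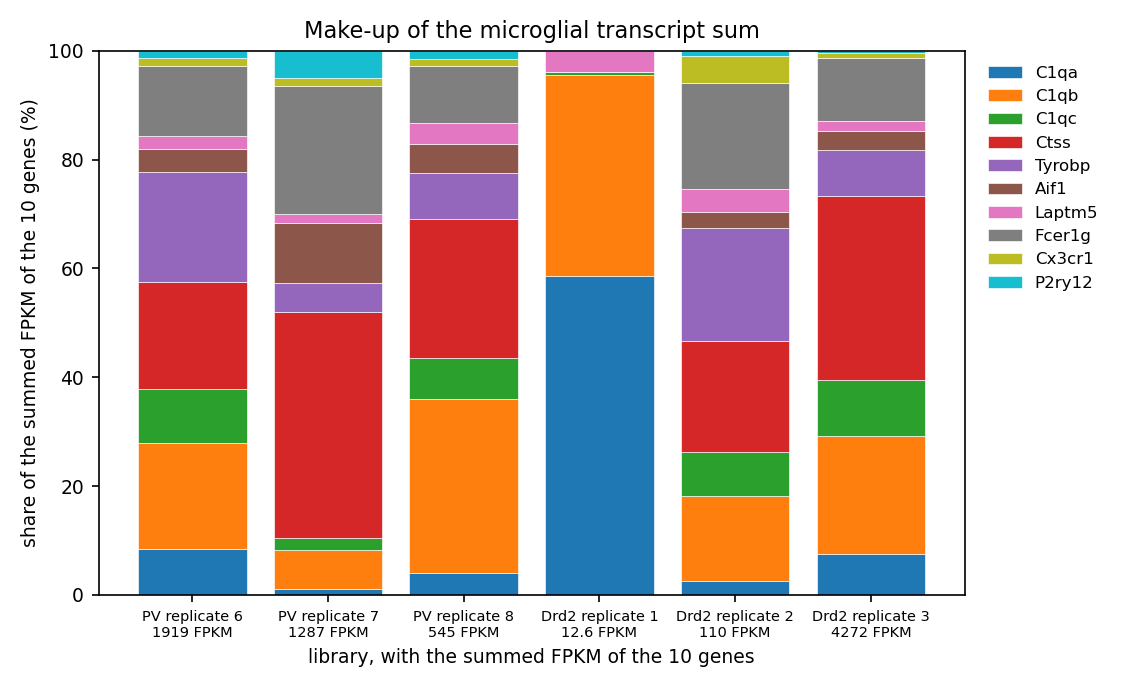
Share of the summed FPKM of the 10 microglial transcripts taken by each gene, as stacked bars for the 3 PV libraries and the 3 Drd2 libraries, with the sum under each bar. Ctss and Fcer1g take the most of PV 7, and C1qa and C1qb nearly all of the 12.6 FPKM of Drd2 1.

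PV was set against Drd2 by limma on log2(FPKM + 1) over all 11478 genes kept, those with at least 1 FPKM in at least 3 libraries. All 10 genes were kept. The PV libraries were enough to keep each of them, and C1qa and C1qb also reached 1 FPKM in all 3 Drd2 libraries. The 10 genes were chosen by these same values, so their folds and SEs are a description and nothing is read from how many lie past a threshold. Log2 folds, PV minus Drd2, were above 0 for all 10, as for 38.4% of all genes, and ran from 0.81 (C1qa) to 3.24 (Ctss). Their median was 2.20, beside -0.28 for all genes kept. Of the 10, 0 were among the 0.261% of all genes called, 1 was among the 12.8% with an unadjusted p under 0.05, and 0 were among the 19% whose groups did not overlap. The folds were 0.81 ± 1.51 for C1qa, 2.01 ± 1.52 for C1qb and 1.87 ± 1.78 for C1qc (SE). They were 3.24 ± 2.03 for Ctss, 1.67 ± 1.21 for Laptm5, 2.40 ± 1.74 for Tyrobp and 2.88 ± 1.78 for Fcer1g. For Aif1 the fold was 3.04 ± 1.51, for Cx3cr1 1.43 ± 1.15 and for P2ry12 2.88 ± 1.12. Standard errors were wide, 1.12 to 2.03 on the log2 scale, beside a median of 0.69 for all genes.

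The Drd2 libraries differed from each other far more at these genes than at most. The SD of log2(FPKM + 1) among the Drd2 libraries was 2.25 to 5.26 over the 10 genes, beside a median of 0.59 for all genes; among the PV libraries it was 0.67 to 1.86, beside 0.85. The sign also depended on the scale. Mean FPKM was lower in PV than in Drd2 for 4 genes whose log2 fold was above 0: C1qa (66.0 against 111), C1qb (213 against 315), C1qc (86.4 against 150) and Ctss (351 against 487). The mean sum of the 10 genes differed by -214 FPKM, PV minus Drd2, and was 58.4 FPKM higher in PV with median-of-ratios scaling; after rescaling to TPM the difference was -1060 TPM.

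The size of the folds depended on single Drd2 libraries. Without Drd2 3 the folds of the 10 genes ran from 2.71 to 5.98, with a median of 4.21. Without Drd2 1 they ran from -0.12 to 2.00, with a median of 0.44 and 9 of 10 above 0. All 10 genes were lower in Drd2 1 and Drd2 2 than in every PV library, and 8 of 10 were higher in Drd2 3 than in every PV library, as were 33.4% of all genes. Drd2 1 and Drd2 2 are the libraries with Y-linked transcripts. Among the 4 libraries with Xist there is a single Drd2 library, so class of neuron, this split and the microglial level cannot be told apart. In both label genes, Pvalb (99.5 FPKM) and Drd2 (7.74 FPKM), Drd2 3 lay between the PV libraries and the other Drd2 libraries. The part of this in the folds was not tested.

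**Figure D3:**
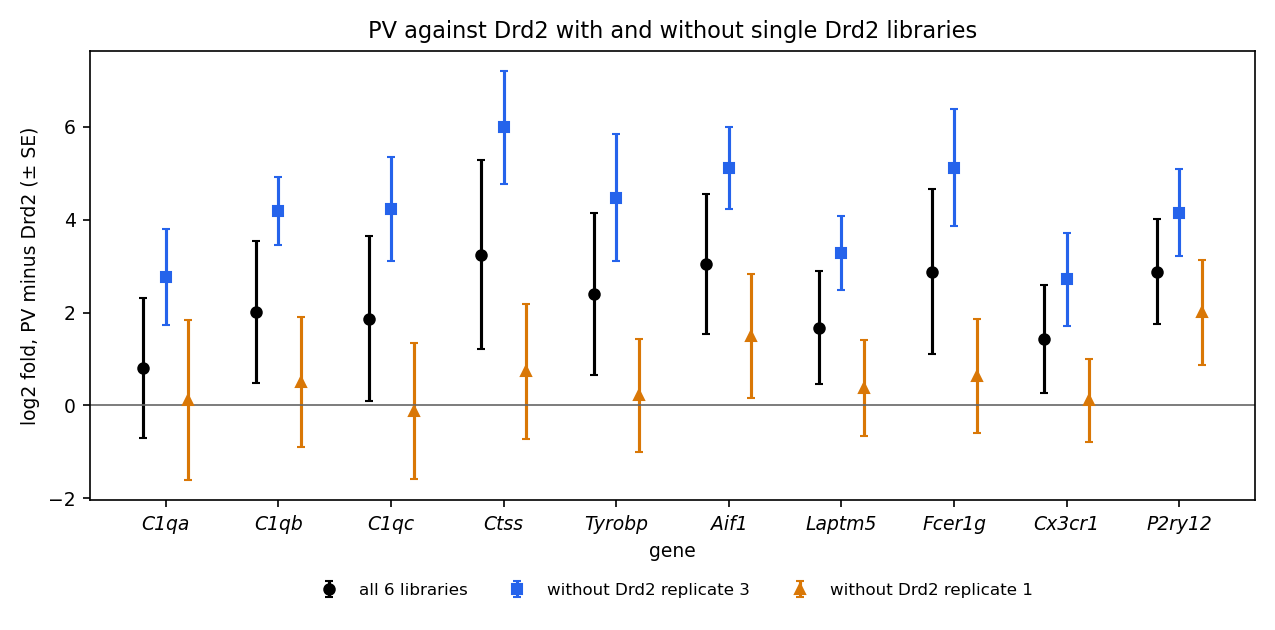
Log2 fold of each microglial transcript, PV minus Drd2, with its SE as bars, from all 6 libraries (black circles), without Drd2 3 (blue squares) and without Drd2 1 (orange triangles). Leaving out Drd2 3 gives a median of 4.21, against 2.20 for all 6 libraries, and leaving out Drd2 1 gives 0.44.

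A list of 30 other microglial genes followed the libraries in the same broad order, with many more gaps. The list summed to 464, 529 and 166 FPKM in libraries PV 6, PV 7 and PV 8, and to 101, 153 and 812 FPKM in libraries Drd2 1, Drd2 2 and Drd2 3. Rgs10, at 69.4 to 103 FPKM in every library, made up most of the lowest sum; without it the sums were 394, 426 and 96.5 FPKM in PV and 16.5, 78.6 and 717 FPKM in Drd2. Of the 30 genes, 24, 15 and 10 reached 1 FPKM in libraries PV 6, PV 7 and PV 8, and 4, 12 and 25 did in libraries Drd2 1, Drd2 2 and Drd2 3. Drd2 3 was the highest library for 18 of them. Of 18 kept, 12 had folds above 0 and none passed; the median of the 18 was 0.45. The median of these 18 was -0.36 without Drd2 1 and 1.90 without Drd2 3, and over all 30 genes, with no filter, it was 0.0031.

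Tmem119 was highest in Drd2 3, and Cd68 and Fcrls were low there. Tmem119, a surface marker of resident microglia, was at 42.1, 7.52 and 3.05 FPKM in PV and at 0, 7.63 and 80.0 FPKM in Drd2. Cd68, a lysosomal protein of phagocytes, went another way, at 35.5, 29.0 and 12.6 FPKM in PV, against 0, 2.62 and 1.47 FPKM in Drd2. Its groups did not overlap, as for 5.83% of all genes with PV higher, and it did not pass (log2 fold 3.57 ± 0.72 SE; limma adjusted p = 0.0764). Fcrls, an Fc receptor-like gene of mouse microglia, was at 5.50, 34.4 and 40.8 FPKM in PV and was listed at 0, 7.61 and 0 FPKM in Drd2 (limma adjusted p = 0.211).

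Both P2ry13 and Gpr34 were highest in PV 7, as P2ry12 was. P2ry13, a purine receptor and the neighbour of P2ry12 within 54980 bases of chromosome 3, was at 7.42, 52.6 and 2.11 FPKM in libraries PV 6, PV 7 and PV 8, and at 0, 0 and 3.50 FPKM in libraries Drd2 1, Drd2 2 and Drd2 3. Gpr34, a lysophospholipid receptor, was at 12.7, 91.0 and 2.09 FPKM in PV and at 0, 4.05 and 26.8 FPKM in Drd2. Neither passed (limma adjusted p = 0.334 and 0.669).

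Partners of C1q in the complement pathway included many genes near 0. Of 23 genes, 9 stayed under 1 FPKM in every library and 4 were listed at 0 in all of them: C1ra and C1s1, the proteases that C1q carries, and Cfd and Vsig4. C3, the substrate of the pathway, was at no more than 0.0653 FPKM (Drd2 3), and C4b at no more than 6.13 FPKM, in the same library; these 6 genes were chosen after their values were seen. The inhibitors were higher: Cd59a was at 20.3, 99.7 and 0.156 FPKM in PV and at 28.2, 23.7 and 19.2 FPKM in Drd2, and Serping1, the C1 inhibitor, was at 5.31, 0 and 24.7 FPKM in PV and at 24.4, 17.2 and 18.2 FPKM in Drd2. None of the 8 complement genes kept passed in limma, and 7 of them had a fold below 0 (median -0.69).

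Of 21 receptor and signalling genes listed with Tyrobp and Fcer1g, 10 were highest in Drd2 3, beside 20.4% of all genes kept. All 4 Fc receptors were among these 10, whereas Trem2 was among the 7 highest in PV 6. Another 3 were listed at 0 in every library. Fcgr3, an activating Fc receptor that pairs with Fcer1g, was at 33.3, 2.77 and 0 FPKM in libraries PV 6, PV 7 and PV 8, and at 0, 0 and 71.0 FPKM in libraries Drd2 1, Drd2 2 and Drd2 3. Fcgr1 was at 0.0259, 0.642 and 0 FPKM in PV and at 0, 0 and 45.4 FPKM in Drd2, and Fcgr4 at 0.0534, 0 and 0 FPKM in PV and at 0, 0.0530 and 34.7 FPKM in Drd2. Fcgr2b, the inhibitory one, was at 0.127, 6.66 and 0 FPKM in PV and at 0, 0 and 18.3 FPKM in Drd2. Trem2, the lipid-sensing receptor that pairs with Tyrobp, was at 16.8, 0.467 and 7.57 FPKM in PV and at 0, 1.80 and 14.2 FPKM in Drd2. Of the 21 genes, 4 were kept and none passed in limma (median fold 0.12).

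The 10 other cathepsins, taken as a sum, had another order of libraries than Ctss. That sum was 567, 122 and 267 FPKM in libraries PV 6, PV 7 and PV 8, and 431, 542 and 915 FPKM in libraries Drd2 1, Drd2 2 and Drd2 3. As with Ctss, 6 of the 10 were highest in Drd2 3. Ctsc and Ctsh were, like Ctss, listed at 0 in Drd2 1 and highest in Drd2 3, at 38.8 and 18.9 FPKM. Of 9 kept, none had a fold above 0 (median -1.42) and none passed in limma, whereas the fold of Ctss was 3.24. Ctsz was at 77.0, 2.96 and 0.0734 FPKM in libraries PV 6, PV 7 and PV 8, and at 79.4, 138 and 371 FPKM in libraries Drd2 1, Drd2 2 and Drd2 3 (limma adjusted p = 0.191). Ctsb, which neurons also express, was at 197, 75.7 and 165 FPKM in PV and at 162, 214 and 223 FPKM in Drd2. In Drd2 1, where Ctss was listed at 0, Ctsb, Ctsd, Ctsz and Ctsl were at 162, 81.8, 79.4 and 52.5 FPKM. Cst3, the secreted inhibitor cystatin C, was at 3250, 3166 and 1573 FPKM in PV and at 505, 1090 and 2625 FPKM in Drd2.

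Cx3cl1 and Il34, ligands that neurons are known to make, had another order of libraries than the microglial receptors Cx3cr1 and Csf1r. Il34 and Csf1r were nonetheless both highest in Drd2 3. Cx3cl1, which encodes fractalkine, was at 51.2, 20.6 and 36.3 FPKM in libraries PV 6, PV 7 and PV 8, and at 85.3, 76.4 and 51.2 FPKM in libraries Drd2 1, Drd2 2 and Drd2 3, so it was highest where Cx3cr1 was lowest (log2 fold -1.02 ± 0.46 SE; limma adjusted p = 0.398). Il34, a ligand of the survival receptor Csf1r that neurons make, was at 21.8, 0 and 20.1 FPKM in PV and at 76.3, 43.5 and 77.8 FPKM in Drd2. Its groups did not overlap, as for 13.1% of all genes with Drd2 higher, and it did not pass (limma adjusted p = 0.268). Csf1, the other ligand, was at no more than 0.921 FPKM (chosen after its values were seen). Csf1r itself was at 12.8, 3.92 and 2.00 FPKM in PV and at 0, 5.26 and 33.4 FPKM in Drd2. Of 12 genes of fractalkine and purine signalling, 7 were kept, 3 of them with folds above 0 (median -0.35), and of 7 genes of survival signalling 4 were kept, 1 with a fold above 0 (median -0.41); none passed in limma.

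Cytokine and chemokine genes separated Drd2 3 from the other libraries rich in microglial transcripts. The 10 genes of this kind, grouped after their values were seen out of a list of 19 genes of microglial activation (Il1a, Il1b, Tnf, Ccl2, Ccl3, Ccl4, Ccl7, Ccl12, Cxcl2 and Cxcl10), summed to 72.3, 211 and 26.0 FPKM in libraries PV 6, PV 7 and PV 8, and to 0, 22.3 and 1917 FPKM in libraries Drd2 1, Drd2 2 and Drd2 3. For each 100 FPKM of the 10 microglial transcripts this was 3.77, 16.4 and 4.77 FPKM in PV, and 0, 20.3 and 44.9 FPKM in Drd2. Drd2 3 was the highest library for 8 of the 10. Cxcl10, a chemokine induced by interferon, was at 502 FPKM in Drd2 3 and listed at 0 in the other 5 libraries. Ccl12, a chemokine that attracts monocytes, was at 5.31, 48.2 and 0.525 FPKM in PV and at 0, 0 and 586 FPKM in Drd2. Tnf was at 9.95, 0 and 0 FPKM in PV and at 0, 0 and 70.4 FPKM in Drd2. Of 5 kept, 2 had a fold above 0 (median -0.06) and none passed in limma; without Drd2 3 the median was 2.27, and without Drd2 1 it was -1.64.

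**Figure D4:**
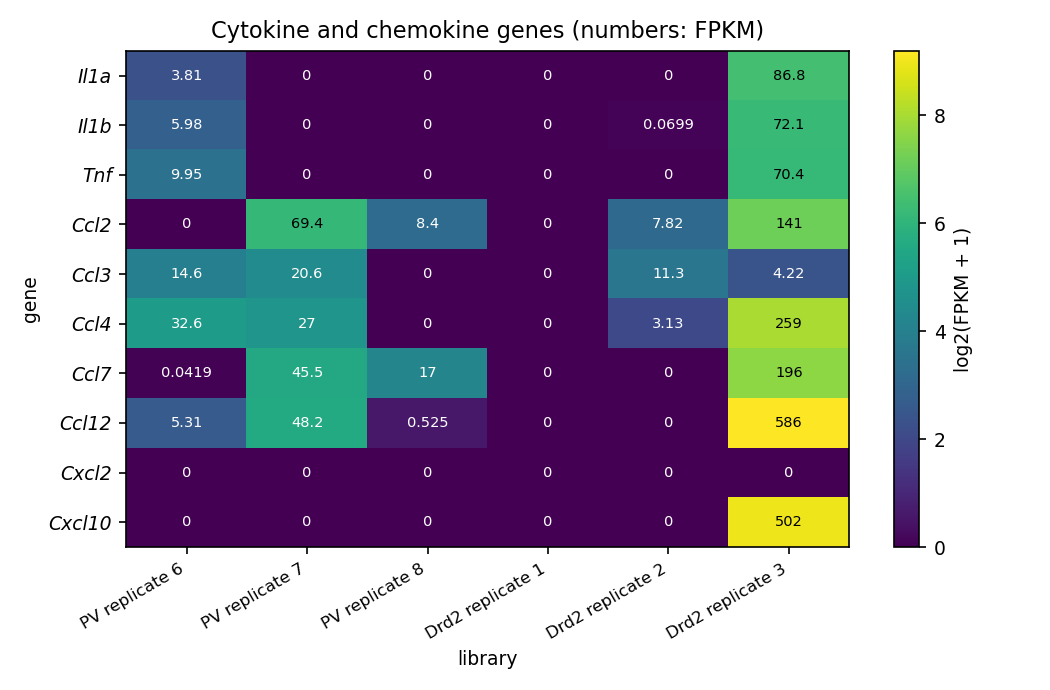
Cytokine and chemokine genes by library, PV libraries on the left and Drd2 libraries on the right, coloured by log2(FPKM + 1) with FPKM written in each cell. Drd2 3 holds the highest value of 8 genes, and Ccl3 is highest in PV 7 at 20.6 FPKM.

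Ier3, a stress response gene, and Cd83 are on the same list of 19 and had another order of libraries. Of the 19, 10 were kept, 3 of them with folds above 0 (median -0.20). Ier3 was at 92.8, 0.255 and 0.0624 FPKM in libraries PV 6, PV 7 and PV 8, and at 137, 52.3 and 90.8 FPKM in libraries Drd2 1, Drd2 2 and Drd2 3, with its highest value in the library with the fewest microglial transcripts. Cd83, an immune surface protein, fell in PV (3.99, 0.379 and 0.123 FPKM, against 40.4, 35.7 and 47.7 FPKM in Drd2; log2 fold -4.41 ± 0.68 SE; limma adjusted p = 0.0400), and was the only gene of the list of 19 to pass. Its level in Drd2 1 was thus near that in Drd2 3, whereas the sum of the 10 microglial transcripts in Drd2 1 was 12.6 FPKM. Cd83 is 1 of the 0.218% of all genes called with Drd2 higher, and without Drd2 1, Drd2 2 or Drd2 3 that call was lost, since 0 genes were then called with Drd2 higher. When all 26063 genes above 0 in any library were tested, with no further filter on low values, limma called 0 genes, and 1509 had an unadjusted p under 0.05.

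Genes of antigen presentation and interferon response, chosen after their values were seen, were also high in Drd2 3. Cd74, the invariant chain, was at 508 FPKM there, against 6.90 FPKM in Drd2 2 and 0.859 FPKM in PV 6, and was listed at 0 in the other 3 libraries. H2-Aa, a class II chain, was at 49.5 FPKM there and listed at 0 elsewhere. Irf7, a regulator of the interferon response, was at 62.6 FPKM there, at 0.0622 FPKM in PV 6 and listed at 0 elsewhere.

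The 15 other genes whose pattern over the 6 libraries was nearest to that of the 10 were a mixture. Likeness was the root mean square difference between centred log2(FPKM + 1) profiles; it was 0.87 to 1.29 for the 15, 0.51 to 1.38 for the 10 genes themselves, and 2.58 at the median of the other 11468 genes. The list of other microglial genes held 4 of the 15, Tmem119, Selplg and Csf1r among them. The nearest 2 were genes known from neurons: Calb2, the calcium buffer calretinin, at 21.5, 6.53 and 17.4 FPKM in PV and at 0, 4.57 and 101 FPKM in Drd2, and Npy, neuropeptide Y, at 439, 753 and 583 FPKM in PV and at 44.4, 134 and 1870 FPKM in Drd2. The others included Crybb1, Arhgdib, Lst1, Ifit2, Ppp1r14c, B2m, Cstf2, Lyz2 and Gm29216. B2m, the light chain of class I antigen presentation, was at 334, 281 and 102 FPKM in PV and at 49.1, 68.1 and 2285 FPKM in Drd2. The genes with the nearest pattern thus included genes known from neurons as well as microglial genes. Lyz2 is on another list used here, of genes that microglia raise in disease. Genes on no list were not sorted by cell type, so 4 is not a count of all microglial genes among the 15.

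Other cell types were checked through their markers. Macrophages at the brain's borders share C1q and Cx3cr1 with microglia, but 10 of 11 of their defining markers were under 1 FPKM in every library; the exception was Pf4, at 11.3 FPKM in PV 6 and listed at 0 elsewhere. Of 18 markers of blood leukocytes, 13 were under 1 FPKM in every library, and their sum was 11.8, 0.0358 and 0.361 FPKM in PV and 3.81, 6.28 and 9.19 FPKM in Drd2. Lyz2, a lysozyme that macrophages and neutrophils express strongly, was at 63.4, 6.26 and 42.9 FPKM in PV and at 0, 0 and 51.8 FPKM in Drd2. Of 15 genes that microglia are known to raise in disease, Apoe and Lyz2 among them, 7 were kept, 2 with folds above 0 (median -0.55), and none passed in limma. The 8 endothelial markers summed to at most 4.01 FPKM.

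Transcripts of other non-neuronal cells had their own order of libraries. The sum over 10 oligodendrocyte markers was 316, 337 and 69.8 FPKM in libraries PV 6, PV 7 and PV 8, and 412, 1467 and 74.2 FPKM in libraries Drd2 1, Drd2 2 and Drd2 3. Drd2 2 was the highest library for 9 of these 10, and Drd2 3, the richest in microglial transcripts, had one of the lowest sums. The 5 red cell genes summed to 3002, 3204 and 743 FPKM in PV, and to 0.336, 12.1 and 0 FPKM in Drd2, so the 5 genes were listed at 0 in Drd2 3; all 3 that were kept passed with PV higher in limma, as did 0.0436% of all genes (2 genes in all were called with PV higher without Drd2 1, and 1 without Drd2 3). The 8 astrocyte markers summed to 546, 508 and 535 FPKM in PV, and to 147, 368 and 520 FPKM in Drd2. Most of each sum was Aldoc, at 510, 485 and 512 FPKM in PV and at 137, 311 and 486 FPKM in Drd2. By single genes, Drd2 2 was the highest library for 5 of the 8 astrocyte markers. The 8 neuronal markers summed to 1489, 1780 and 1711 FPKM in PV and to 1165, 1392 and 1396 FPKM in Drd2. Single markers were less even than this sum. Snap25 was at 751, 1109 and 766 FPKM in PV and at 202, 331 and 503 FPKM in Drd2. Tubb3 went the other way, at 285, 61.7 and 311 FPKM in PV and at 510, 563 and 428 FPKM in Drd2. For 3 of the 8 the groups did not overlap, beside 19% of all genes. Against 100 FPKM of neuronal markers, the 10 microglial transcripts stood at 129, 72.3 and 31.8 FPKM in libraries PV 6, PV 7 and PV 8, and at 1.08, 7.88 and 306 FPKM in libraries Drd2 1, Drd2 2 and Drd2 3. The part of any of these cells in the microglial values was not tested.

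**Figure D5:**
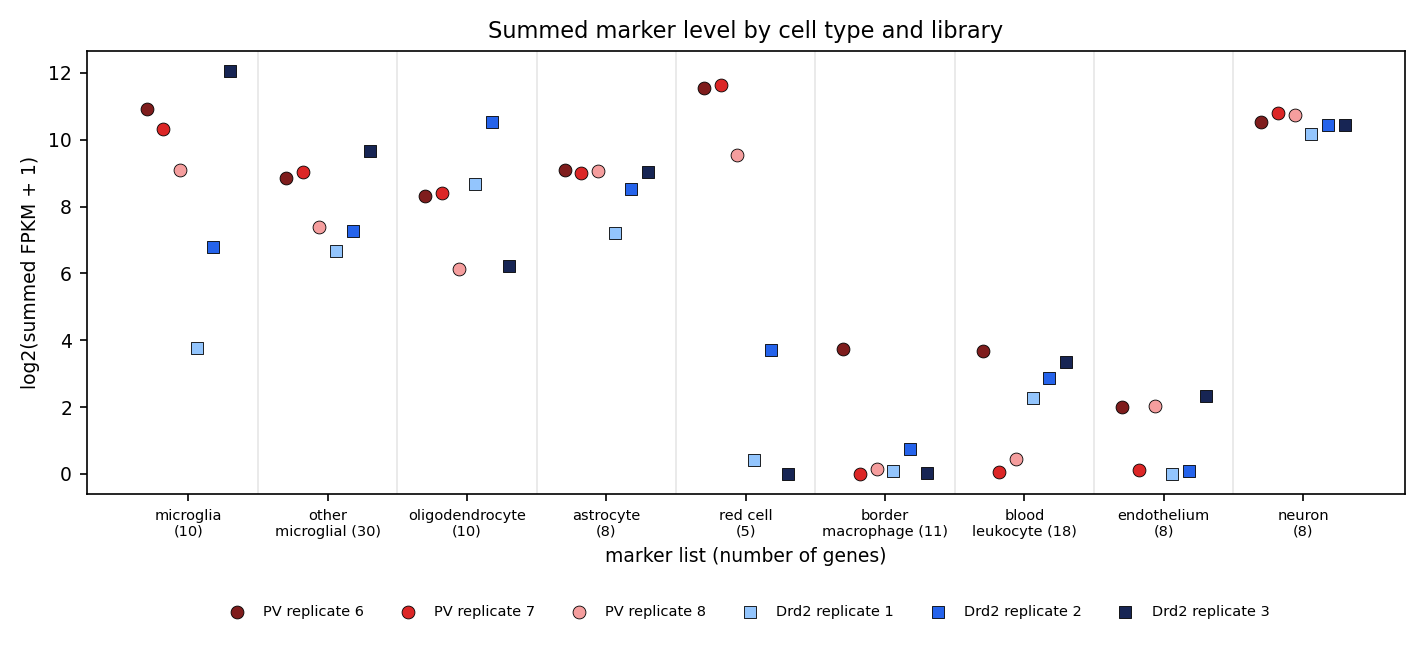
Summed FPKM of marker lists on the scale log2(sum + 1), with 1 point for each library, PV libraries as circles and Drd2 libraries as squares. Neuronal sums run from 1165 to 1780 FPKM, although Snap25 and Tubb3 within them differ between the groups in opposite directions. Microglial sums run from 12.6 to 4272 FPKM, and red cell sums are at least 743 FPKM in PV and at most 12.1 FPKM in Drd2.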

How the data were processed

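Gene expression was measured by RNA sequencing in 3 PV-positive and 3 Drd2-positive libraries. The authors deposited FPKM values. STAR is named as a tool, with builds hg38, GRCh38 and mm10, per the submitters' processing notes. The quantifier, strand setting and annotation are not stated in the labels, so reads of genes that overlap on opposite strands cannot be told apart. The members and gene lists were chosen with earlier results of these data known.

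Positions and exon lengths come from GENCODE M21 (mm10), which held 94.1% of the gene identifiers. Multiplying FPKM by exon length gave whole reads: the share of low values (20 reads or fewer) that came within 0.01 of a whole read was 98.0% to 98.8% per library. Depth and reads were taken from this. They cover counting error only, since PCR copies are not independent. An exact 0 may be a failed estimate.

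The contrast of PV with Drd2 used limma 3.58.1 in R 4.3.3 (intensity trend, 2-sided, Benjamini-Hochberg adjustment, threshold 0.05) on log2(FPKM + 1), a scale that shrinks the folds of genes with low FPKM. P-values measure the spread between these libraries, which the series' design text calls biological replicates without naming the animals. The filter kept genes that reached 1 FPKM in 3 or more libraries. The fit was tested on simulated data in which each gene had the same spread in both groups. The 10 genes differ from that setting, with a wider spread in Drd2 than in PV, so the simulation does not cover them. Named were the 10 members, the 15 nearest profiles, up to 8 genes with the highest mean of each list, and any other gene as stated. Not every gene that this rule covers is reported here. Alternatives changed the pseudocount, the filter, the scaling and the model, or left out 1 library.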

Additional observations from a re-analysis of the deposited data

How the results depend on the processing

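No paired analysis was possible because the PV and Drd2 libraries share no replicate number. For the 10 microglial transcripts, 160 folds were computed under 16 alternatives, as a description. The sign changed in 3 of them: C1qa without PV replicate 6 (-0.25) or Drd2 replicate 2 (-0.46), and C1qc without Drd2 replicate 1 (-0.12). Their median fold ran from 0.44 to 4.21 when single libraries were left out, was 1.65 with a pseudocount of 5 FPKM, 3.15 with 0.1 FPKM and 4.42 with limma voom on recovered reads. The median of the 18 other microglial genes kept ran from -0.36 to 1.90 when single libraries were left out and was 0.02 with a pseudocount of 5 FPKM; over all 30, with no filter, it was 0.0031. The difference of the mean sums, PV minus Drd2, was -214 FPKM, 58.4 FPKM with median-of-ratios scaling, -1060 TPM after rescaling and -78.1 FPKM without Ctss, and ran from -940 to 1189 FPKM when single libraries were left out, an alternative chosen after seeing the data. The count of all genes past the threshold, 30 of 11478, was 4 with a pseudocount of 0.1 FPKM, 68 with 5 FPKM, 0 with no filter (1509 at an unadjusted p under 0.05), 68 with quantile normalization, 46 without a trend, 105 with array weights, and 1 to 56 when single libraries were left out: 56 without PV replicate 6, and 2, 3 and 1 without Drd2 replicates 1, 2 and 3. With quantile normalization 22 of the 68 were higher in PV, against 5 of 30. With voom it was 7 of 22. No scaling changed the sign of a fold of the 10. The median fold of all genes was -0.28, and -0.50 with TPM, -0.12 with median-of-ratios scaling, 0.05 with quantile normalization and -0.45 with voom. The cause of these changes was not tested.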
